A study of Mus musculus with 18 samples.

Results

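The 34 genes described here encode parts of the cardiac sarcomere and the proteins that anchor, protect or fuel it. They were selected by gene symbol from a table of 18264 genes, and all 34 were present. The list held 6 thin filament genes, 8 thick filament genes, 3 genes of titin and the M band, 11 genes of the Z disc and its edges, 2 genes of the desmin filament and its chaperone, and 4 genes of muscle metabolism or other roles. Cardiac fibroblasts from neonatal mouse ventricles gave 18 messenger RNA libraries in 6 groups of 3. The knockdown arm had cells with a negative control siRNA (si-NC), an siRNA against Foxm1 (si-Foxm1), angiotensin II (Ang-II), or that siRNA with angiotensin II (si-Foxm1+Ang-II). In the overexpression arm, cells made to overexpress Foxm1 (OE-Foxm1) stood beside their own control (OE-NC). The labels name no mouse strain, day of age, dose, time, vector or cell sort, and leave unsaid if a control siRNA was given with Ang-II. They do not say that replicates came from separate cultures, so p-values measure the spread between libraries, which may be technical.

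In a sarcomere, myosin in the thick filament pulls on actin in the thin filament. Troponin and tropomyosin on the thin filament make this pull depend on calcium, and titin runs from the Z disc, where thin filaments are anchored, to the M band in the middle. Several of these proteins have isoforms that the heart exchanges during development and under load. Fetal and stressed ventricles are known for more skeletal alpha-actin and beta-myosin heavy chain, and fetal ventricles also for slow skeletal troponin I. The adult mouse ventricle is known for cardiac alpha-actin, alpha-myosin heavy chain and cardiac troponin I. Foxm1 is a forkhead transcription factor of dividing cells, and angiotensin II is a peptide hormone that raises blood pressure and drives cardiac growth and fibrosis.

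The libraries held 14988993 to 19343343 counted fragments each, and the 3 OE-NC libraries were the shallowest. Levels are given in FPKM, fragments scaled by gene length and by library total. Changes are log2 fold changes of FPKM + 1 with their standard error, from 3 libraries per group. For genes with low FPKM this scale makes changes look smaller. A gene was called at an adjusted p under 0.05 in limma, with Benjamini-Hochberg adjustment over all genes tested (11180 in the knockdown arm, 11259 in the overexpression arm). All 34 muscle genes passed the filter of a mean of 1 FPKM in both arms. Foxm1 itself, the check of the labels, was 10.4, 9.64 and 10.3 FPKM in si-NC, 6.06, 5.13 and 6.71 in si-Foxm1, 4.23, 4.03 and 5.65 in Ang-II and 3.55, 3.36 and 3.03 in si-Foxm1+Ang-II. It was 15.7, 17.1 and 17.1 FPKM in OE-NC and 399, 480.0 and 487 in OE-Foxm1.

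Although the cells were labelled fibroblasts, sarcomere transcripts were abundant in every library. The 34 genes took 3.54 ± 0.17% of all counted fragments in si-NC (mean ± SD, n = 3), 2.11 ± 0.10% in si-Foxm1, 2.69 ± 0.12% in Ang-II and 1.64 ± 0.04% in si-Foxm1+Ang-II. They took 2.27 ± 0.03% in OE-NC and 2.40 ± 0.01% in OE-Foxm1. The 10 fibroblast markers (collagens, Pdgfra, Tcf21 and others) summed to 3053.6 to 4395 FPKM per library, and the 20 cardiomyocyte markers outside the sarcomere (such as Nppa, Ryr2 and Pln) to 2108 to 5896 FPKM. No gene of either list was at 0 in every library of a group. Of 7 markers of the skeletal muscle lineage, 5 were in the table, and their sum never exceeded 0.614 FPKM. In bulk RNA, fewer cardiomyocytes and less RNA per cardiomyocyte cannot be told apart.

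Cardiac alpha-actin (Actc1) was the most abundant of the 34 genes in si-NC at 2839 ± 147 FPKM, followed by cardiac troponin T (Tnnt2) at 2299.5 ± 52.2, myoglobin (Mb) at 1782 ± 64 and alpha-myosin heavy chain (Myh6) at 1617 ± 105. No si-NC library of one of these 4 genes overlapped the range of the next. Lower in the order, many neighbours did overlap, for example Myl2 (574 ± 26 FPKM), Mybpc3 (534 ± 21) and Tnni3 (505 ± 23). Skeletal alpha-actin (Acta1) and the slow myosin Myh7b were the least abundant, with 1.72 ± 0.21 and 1.43 ± 0.06 FPKM and overlapping ranges. Actc1 moved to rank 5 in si-Foxm1 and rank 6 in si-Foxm1+Ang-II, and Tnnt2 held rank 1 in every group other than si-NC. The order rests on the gene lengths built into FPKM, which exceeded the longest annotated coding transcript 17.3 times for Myl4, 2.77 times for Myl2, 2.31 times for Tnni1 and 2.06 times for Nebl, and reached 0.516 of it for Ckm. The level of these 5 genes relative to others is therefore uncertain. The length cancels from the ratio of FPKM between groups, but a long one lowers FPKM and so shrinks the change of FPKM + 1, as for Myl4.

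**Figure D1:**
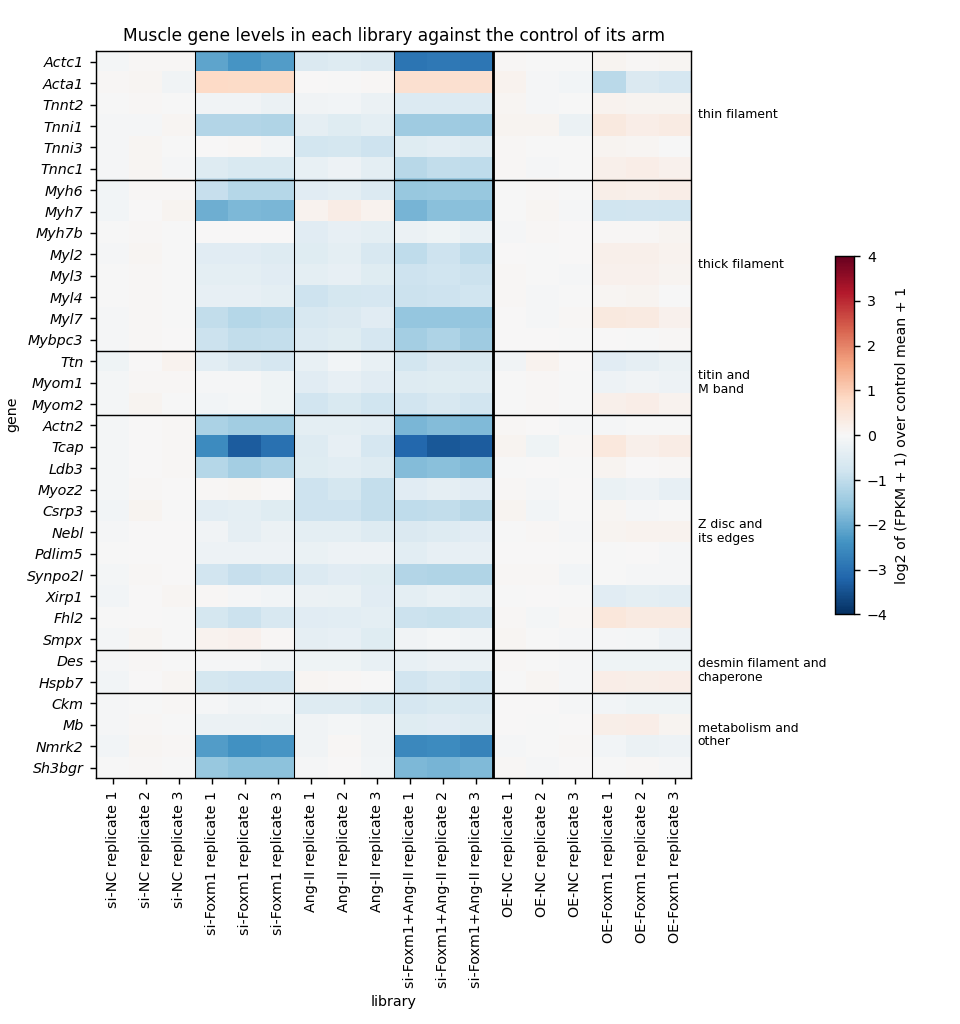
Level of each of the 34 genes (rows, grouped by role) in each of the 18 libraries (columns), as log2 of FPKM + 1 over the mean of the control of its arm plus 1; blue is lower and red is higher. In all 6 libraries with the Foxm1 siRNA, Tcap, Nmrk2 and Actc1 are the darkest blue of the 34 genes and Acta1 is red.

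With the Foxm1 siRNA alone, 25 of the 34 muscle genes fell, 2 rose and 7 were not called. Of all genes tested, 17.2% were called lower and 48.5% higher, against 73.5% and 5.88% of the muscle genes. The muscle genes were chosen with earlier results of these data known. Their shares, here and in the comparisons below, therefore describe the list and are not a test of it. The median log2 fold change was -0.45 for the muscle genes and 0.11 for all genes tested. The fall was at least 2-fold for 10 muscle genes (29.4%), against 0.385% of all genes tested. By role, 4 of 6 thin filament genes fell and 1 rose, 7 of 8 thick filament genes fell, 1 of 3 genes of titin and the M band fell, 8 of 11 Z disc genes fell and 1 rose, 1 of the 2 genes of the desmin filament fell, and all 4 of the metabolic group fell. The groups did not overlap for 26 of the 34, a share close to that of all genes tested (71%).

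The deepest fall was that of Tcap (telethonin), which caps titin at the Z disc. It was at 25.9, 27.4 and 28.3 FPKM in si-NC and 3.92, 1.81 and 2.54 in si-Foxm1, a change of -2.95 ± 0.15 (adjusted p = 2.26e-09, limma). The groups did not overlap, and the spread of the si-Foxm1 libraries was wide relative to their level, which rested on few fragments (30 in the lowest library of the series). Nmrk2, a nicotinamide riboside kinase of muscle that makes a precursor of NAD, was at 53.0, 60.3 and 59.0 FPKM in si-NC and 11.4, 9.95 and 10.3 in si-Foxm1 (-2.34 ± 0.06, adjusted p = 9.36e-12). Its 3 si-Foxm1 libraries lay close together, 5.44-fold below si-NC in mean FPKM. Actc1 was at 2669, 2929 and 2920.1 FPKM in si-NC and 658, 549.7 and 608 in si-Foxm1 (-2.23 ± 0.05, adjusted p = 4.45e-12). Myh7, the beta-myosin heavy chain, was at 9.65, 10.5 and 11.4 FPKM and then 1.99, 2.33 and 2.27 (-1.85 ± 0.07, adjusted p = 1.99e-10). Sh3bgr, a small protein of heart and skeletal muscle, was at 207, 218 and 208 FPKM and then 72.4, 66.9 and 67.1 (-1.60 ± 0.04, adjusted p = 4.45e-12). Every one of these 5 genes had all its si-Foxm1 libraries under all its si-NC libraries, but this was a condition for naming them. Here and in the comparisons below, the furthest-changing genes were chosen among called genes whose groups did not overlap.

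Alpha-actinin 2 (Actn2), the crosslinker of the Z disc, and its PDZ-LIM partner Ldb3 fell by 1.36 ± 0.04 and 1.24 ± 0.05. Slow skeletal troponin I (Tnni1), the atrial light chain Myl7 and Myh6 fell by 1.18 ± 0.04, 1.08 ± 0.05 and 1.07 ± 0.06, and these complete the 10 genes with at least a 2-fold fall. Just outside that limit lay myosin binding protein C (Mybpc3), which fell by 0.93 ± 0.05. Synpo2l, Hspb7, Fhl2, Tnnc1, Ttn, Myl2, Csrp3, Myl3 and Myl4 fell by between 0.35 and 0.85, and Mb, Nebl, Pdlim5, Tnnt2 and Ckm by between 0.09 and 0.25. The small changes of Tnnt2 and Mb depended on the scaling. Quantile normalization gave 0.16 for Tnnt2 (adjusted p = 0.00171) and 0 for Mb, while both stayed called lower with median-of-ratios scaling. Ckm had overlapping groups, and its call was lost with quantile normalization and without si-NC replicate 3 or si-Foxm1 replicate 2 or 3.

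Other genes of the same structures changed less or rose. Cardiac troponin I (Tnni3), the inhibitory subunit paired with Actc1 in the thin filament, was at 489, 531 and 494 FPKM in si-NC and 508, 523 and 471 in si-Foxm1 (-0.01 ± 0.05, adjusted p = 0.844). The ranges overlapped, and this small change was sensitive to the scaling, at -0.14 (adjusted p = 0.0211) with median-of-ratios scaling and 0.09 (adjusted p = 0.0571) with quantile normalization. Myoz2, which tethers calcineurin to the Z disc (0.05 ± 0.06), Myh7b (0.02 ± 0.05), Xirp1 (-0.03 ± 0.06), Des (-0.07 ± 0.04) and Myom1 (-0.09 ± 0.05) also were not called, though median-of-ratios scaling called Des and Myom1 lower, and quantile normalization Myom1. Myom2 (-0.13 ± 0.05, adjusted p = 0.0528) had groups that did not overlap and was called lower under 10 alternatives, among them both other scalings and voom on recovered counts. Acta1, the skeletal alpha-actin, rose from 1.79, 1.87 and 1.48 FPKM in si-NC to 3.73, 3.65 and 3.60 in si-Foxm1 (0.78 ± 0.05, adjusted p = 5.17e-08). Smpx, a small protein of the muscle cytoskeleton, was higher by 0.13 ± 0.05 with overlapping groups (adjusted p = 0.0393), a call lost with median-of-ratios scaling (0.00) and without si-NC replicate 1 or 3 or si-Foxm1 replicate 1 or 2.

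**Figure D2:**
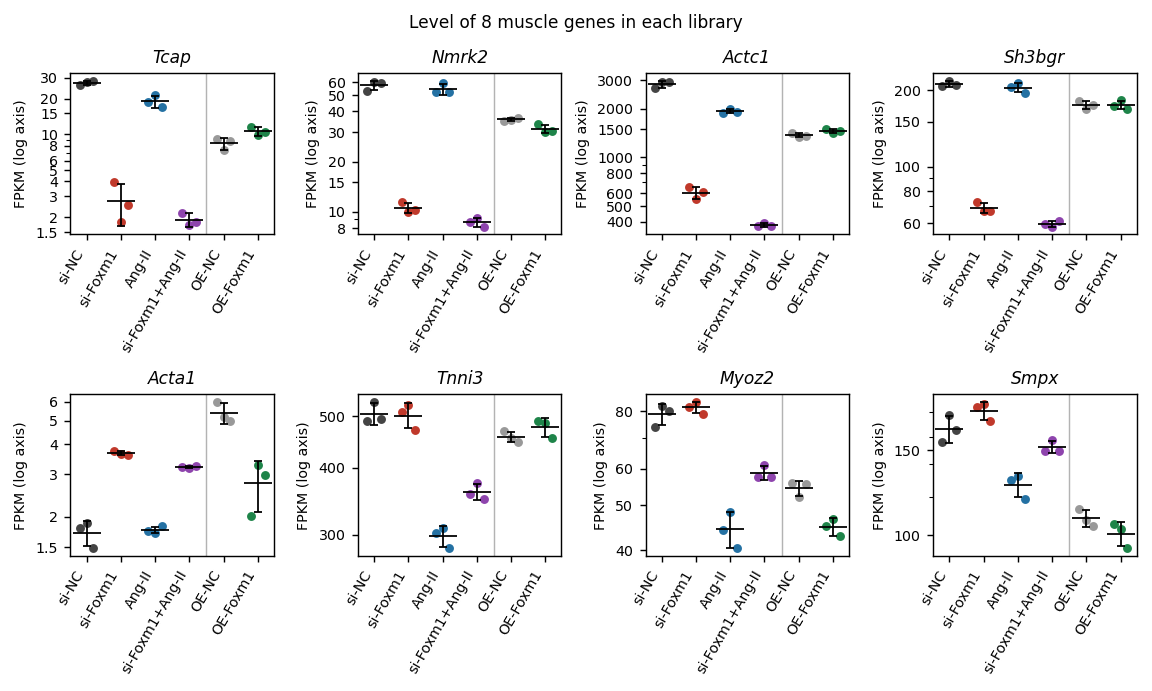
FPKM on a log axis in each library (points) of the 6 groups for 8 muscle genes, with the mean (long bar) and SD (n = 3); a grey line parts the knockdown and overexpression arms. Tcap, Nmrk2, Actc1 and Sh3bgr are low in both siRNA groups. Acta1 is high in both within the knockdown arm, though it is highest of all in OE-NC. Tnni3, Myoz2 and Smpx are lower in both Ang-II groups than in the matching groups without it.

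In the same libraries, markers of other cell types moved as well. Of 18 tested cardiomyocyte markers outside the sarcomere, 11 fell and 4 rose with the siRNA, with sums of 5476 to 5896 FPKM in si-NC and 2568 to 2719 in si-Foxm1. Their changes ran in both directions. Casq2, a calcium store protein, fell by 2.52 ± 0.07, while phospholamban (Pln), which restrains the calcium pump, rose by 0.18 ± 0.03. The rise of Pln was small beside a median of 0.11 for all genes tested. With median-of-ratios scaling 12 of the 18 fell and 2 rose, and with quantile normalization 11 fell and 3 rose. All 10 tested macrophage and leukocyte markers fell (sums of 267 to 275 and then 136 to 170.3 FPKM), 7 of 9 smooth muscle and pericyte markers fell, 5 of 9 endothelial markers rose and 1 fell, and 2 of 10 fibroblast markers rose and 3 fell. Of 7 epicardial markers 1 rose and 5 fell. Over all genes tested, 48.5% were called higher and 17.2% lower, so the endothelial counts were near the general share. Some counts depended on the scaling. With median-of-ratios scaling, 1 of 10 fibroblast markers rose and 7 fell, and 4 of 9 endothelial markers rose and 2 fell. That scaling called 26.4% of all genes tested higher and 29.3% lower. The part of these cell types in the muscle gene changes was not tested.

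Promoter sequences were searched for known motifs. The 300 bases around the start site (250 before, 50 after) were read for 30 of the 34 genes from RefSeq (GRCm38.p6, not the authors' build). Among 27025 genes, 1.81% held a CArG box, the site of serum response factor, on either strand, against 8 of the 30 muscle genes (26.7%). It was found in 3 of the 8 genes with at least a 2-fold fall and 5 of the other 22. The MCAT motif of TEAD factors (GGAATG) was in 10 of the 30 (33.3%, against 16.6% of all genes), the E box CANNTG in 27 (90% against 74.99%) and the GATA motif AGATAA in 7 (23.3% against 12.7%). None of the 8 genes with at least a 2-fold fall and a promoter in the table held the GATA motif, and 7 of the other 22 did. A forkhead core, TAAACA, was in 2 of the 30 (6.67%) against 15.1% of all genes. A match is only a run of letters, and its absence from this window says nothing of the factor.

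The 150 bases before the start site are shown for the alpha-actin pair, which moved in opposite directions, and for Nmrk2 and Tnni3, of which 1 fell and 1 was not called. Each runs 5′ to 3′ on the strand of the gene, with CArG, MCAT and GATA matches in capitals. They lie at chr2:114052876-114053025 (Actc1), chr8:123894776-123894925 (Acta1), chr10:81202038-81202187 (Nmrk2) and chr7:4522529-4522678 (Tnni3), all on the minus strand of GRCm38.p6.
Actc1: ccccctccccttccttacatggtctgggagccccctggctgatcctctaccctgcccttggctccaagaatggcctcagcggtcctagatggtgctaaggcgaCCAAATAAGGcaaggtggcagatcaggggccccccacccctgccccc
Acta1: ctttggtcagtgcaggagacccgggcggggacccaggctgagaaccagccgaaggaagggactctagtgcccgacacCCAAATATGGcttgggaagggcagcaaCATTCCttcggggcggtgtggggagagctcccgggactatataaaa
Nmrk2: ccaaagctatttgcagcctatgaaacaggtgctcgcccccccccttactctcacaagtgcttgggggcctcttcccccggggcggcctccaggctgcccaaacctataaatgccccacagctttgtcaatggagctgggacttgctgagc
Tnni3: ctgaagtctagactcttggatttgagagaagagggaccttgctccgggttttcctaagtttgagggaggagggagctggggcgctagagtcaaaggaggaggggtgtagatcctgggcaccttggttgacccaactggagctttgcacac
Both alpha-actins, of which Actc1 fell and Acta1 rose, held a CArG box in this stretch, and Acta1 also an MCAT match. Nmrk2, which fell, held none of the 3 motifs here, and nor did Tnni3.

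Under angiotensin II, the siRNA gave much the same profile. Of the 34 genes, 23 fell, 5 rose and 6 were not called in si-Foxm1+Ang-II against Ang-II, where 17.4% of all genes tested were called lower and 44% higher. The median was -0.42, against 0.09 for all genes tested. At least a 2-fold fall was seen in 9 genes (26.5%, against 0.474% of all genes tested), and all 9 were among the 10 without the hormone. By role, 4 of 6 thin filament genes fell and 2 rose, 6 of 8 thick filament genes fell and 1 rose, 1 of 3 genes of titin and the M band fell, 7 of 11 Z disc genes fell and 2 rose, 1 of 2 of the desmin group fell and all 4 of the metabolic group fell.

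Tcap was at 18.9, 21.2 and 16.8 FPKM in Ang-II and 2.18, 1.71 and 1.81 with the siRNA added (-2.78 ± 0.15, adjusted p = 3.91e-09). Nmrk2 was at 52.1, 59.0 and 52.2 FPKM and then 8.71, 9.14 and 8.10 with the siRNA as well (-2.52 ± 0.06, adjusted p = 5.50e-12). Actc1 was at 1894, 1986 and 1907 FPKM and then 374, 393 and 378 (-2.33 ± 0.05, adjusted p = 2.40e-12). These 3 genes had no overlap between groups, as the choice of named genes required. Myh7 went from 11.6, 13.2 and 11.7 FPKM to 2.20, 2.63 and 2.60 (-1.92 ± 0.07), and Sh3bgr from 206, 212 and 195 to 59.7, 58.0 and 61.5 (-1.76 ± 0.04). Acta1 rose from 1.75, 1.71 and 1.82 FPKM to 3.22, 3.19 and 3.24 (0.61 ± 0.05, adjusted p = 6.04e-07), and the libraries of each group lay close together. Myoz2 rose here, from 44.2, 48.4 and 40.4 FPKM to 57.6, 61.1 and 57.4 (0.40 ± 0.06, adjusted p = 3.27e-05), and so did Tnni3 (0.27 ± 0.05), Smpx (0.26 ± 0.05) and Myh7b (0.16 ± 0.05). The call of Myh7b was lost under both other scalings. Macrophage markers again all fell (10 of 10 tested, sums of 324 to 354 and then 134 to 155 FPKM), and cardiomyocyte markers outside the sarcomere gave 10 lower and 4 higher of 18. Of the smooth muscle markers 7 of 9 fell and 0 rose, of the endothelial markers 5 of 9 rose and 2 fell, of the fibroblast markers 2 of 10 rose and 2 fell, and of the epicardial markers 1 of 7 rose and 2 fell. Over all genes tested, 44% were called higher and 17.4% lower. With median-of-ratios scaling, 1 of 10 fibroblast markers rose and 6 fell. The part of these cell types was not tested.

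The 2 siRNA comparisons share no library. Across the 34 genes, which are not independent replicates, their log2 fold changes had a Pearson correlation of 0.99 and a Spearman correlation of 0.98. The sign was the same for 33 genes, 23 fell in both and 2 (Acta1 and Smpx) rose in both. These correlations and counts were not computed over all genes tested. Whether such likeness is particular to the muscle genes therefore cannot be told. The difference between the 2 effects was tested as an interaction, which called 0.921% of all genes tested and 1 of the 34. Fhl2, a LIM-domain adaptor of the Z disc, was at 293, 297 and 292 FPKM in si-NC and 179, 161 and 189 in si-Foxm1, against 216, 219.6 and 222 in Ang-II and 161, 157 and 163 in si-Foxm1+Ang-II. Its fall was smaller with the hormone (-0.45 ± 0.04) than without (-0.74 ± 0.04), a difference of 0.28 ± 0.06 (adjusted p = 0.0488). Myoz2 (0.35 ± 0.08, adjusted p = 0.0543) and Tnni3 (0.28 ± 0.07, adjusted p = 0.0586) differed by as much or more and were not called here, but were under 6 and 4 alternatives, among them voom, all 18 libraries in 1 fit and median-of-ratios scaling. Myl4 (0.26 ± 0.06) and, in the other direction, Tnnt2 (-0.20 ± 0.05) were likewise not called here but were under 4 and 5 alternatives. At an unadjusted p under 0.05 there were 13 of the 34, 9 with a difference above 0 and 4 below, and 14.3% of all genes tested.

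**Figure D3:**
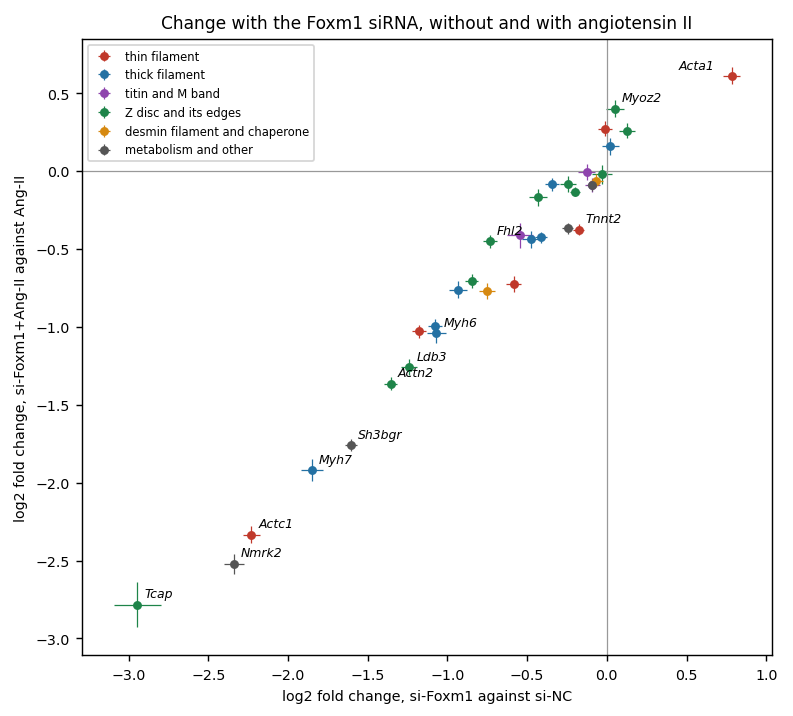
Log2 fold change (± standard error) of each of the 34 genes with the Foxm1 siRNA, without angiotensin II on the horizontal axis and with it on the vertical axis, coloured by role. The genes run along a diagonal from Tcap (-2.95 and -2.78) to Acta1 (0.78 and 0.61), and Fhl2 and Myoz2 lie above it.

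Angiotensin II alone lowered most of these genes by a small step. In Ang-II against si-NC, 29 of the 34 fell, 1 rose and 4 were not called, while 29.2% of all genes tested were called lower and 15.2% higher. The median was -0.41 for the muscle genes and -0.03 for all genes tested, and none reached a 2-fold change. By role, 5 of 6 thin filament genes, 7 of 8 thick filament genes, all 3 of titin and the M band, all 11 of the Z disc, 1 of the desmin group and 2 of 4 of the metabolic group fell. The groups did not overlap for 29 of the 34, against 52.9% of all genes tested.

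Csrp3, the muscle LIM protein of the Z disc, was at 157, 185 and 167 FPKM in si-NC and 95.9, 95.3 and 87.97 in Ang-II (-0.86 ± 0.05, adjusted p = 5.56e-08). Myoz2 went from 74.0, 82.1 and 80.1 FPKM to 44.2, 48.4 and 40.4 (-0.82 ± 0.06, adjusted p = 9.63e-08). Tnni3 went from 489, 531 and 494 FPKM to 303, 309 and 283 (-0.76 ± 0.05, adjusted p = 3.88e-08). The highest Ang-II library of each of these 3 genes lay well under its lowest si-NC library, though a lack of overlap was required for naming them. The atrial essential light chain Myl4 went from 10.8, 11.2 and 10.7 FPKM to 5.68, 6.33 and 6.44 (-0.73 ± 0.04), and Myom2, of the M band, from 80.3, 91.4 and 83.6 to 49.8, 55.3 and 48.7 (-0.72 ± 0.05). Actc1 fell by 0.56 ± 0.05, Myh6 by 0.46 ± 0.06 and Tnni1 by 0.41 ± 0.04. The values of Actc1 are given above, and those of Myh6 and Tnni1 with the isoform pairs below. The other called genes fell by between 0.12 and 0.57.

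Myh7 was the exception, at 9.65, 10.5 and 11.4 FPKM in si-NC and 11.6, 13.2 and 11.7 in Ang-II (0.19 ± 0.07, adjusted p = 0.0375). Its groups did not overlap but nearly touched, and the call was lost with a pseudocount of 0.1, with no filter, and without si-NC replicate 1 or 2 or Ang-II replicate 2. Nmrk2 (-0.08 ± 0.06), Sh3bgr (-0.05 ± 0.04), Acta1 (0.03 ± 0.05) and Hspb7 (0.03 ± 0.05) were not called. Nmrk2 and Sh3bgr were among the 5 genes that fell furthest with the siRNA, whereas Myoz2, among the 5 that fell furthest with the hormone, was not called with the siRNA alone. Tnni3 and Myom2, also among those 5, had siRNA changes near the threshold or dependent on the scaling, as given above. These 2 comparisons share the si-NC libraries. Of the cardiomyocyte markers outside the sarcomere, 15 of 18 fell with angiotensin II and 0 rose, as did 7 of 9 endothelial markers. Of the 10 tested macrophage markers 4 rose and 1 fell, of 10 fibroblast markers 2 rose and 6 fell, of 9 smooth muscle markers 4 rose and 2 fell, and of 7 epicardial markers 1 rose and 4 fell. Over all genes tested, 15.2% were called higher and 29.2% lower. With median-of-ratios scaling 12 of the 18 cardiomyocyte markers fell, and with quantile normalization 11. The part of these cell types was not tested.

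Where the siRNA was present as well, the hormone had a like effect. In si-Foxm1+Ang-II against si-Foxm1, 30 of the 34 fell, 0 rose and 4 were not called, while 34.6% of all genes tested were called lower and 12.9% higher, with a median of -0.36 against -0.07. All 6 thin filament genes, 7 of 8 thick filament genes, 2 of 3 of titin and the M band, 10 of 11 of the Z disc, 1 of the desmin group and all 4 of the metabolic group fell. Actc1 fell from 658, 549.7 and 608 FPKM to 374, 393 and 378 (-0.66 ± 0.05, adjusted p = 5.83e-07). Myom2 went from 78.9, 79.7 and 74.8 FPKM to 49.8, 53.7 and 49.7 (-0.60 ± 0.05), and Csrp3 from 127, 129.96 and 119.96 to 83.4, 85.7 and 79.0 (-0.60 ± 0.05). Muscle creatine kinase (Ckm), which buffers ATP, went from 348, 327 and 328 FPKM to 226, 232 and 228 (-0.55 ± 0.03), and Ldb3 from 33.2, 28.6 and 31.0 to 21.5, 22.5 and 21.1 (-0.49 ± 0.05). None of these 5 genes had overlapping groups, which was again a condition for naming them. Tcap (-0.34 ± 0.15), Ttn (-0.09 ± 0.08), Hspb7 (0.01 ± 0.05) and Myh7 (0.12 ± 0.07) were not called, and the call of Acta1 (-0.14 ± 0.05, adjusted p = 0.0438) was lost under 16 alternatives. This comparison shares no library with Ang-II against si-NC, and across the 34 genes their log2 fold changes had a Pearson correlation of 0.82 and a Spearman correlation of 0.81, with 27 genes lower in both. Again no such values were computed over all genes tested. Of the cardiomyocyte markers outside the sarcomere 13 of 18 fell and 0 rose, of the endothelial markers 8 of 9 fell and 0 rose, and of the fibroblast markers 7 of 10 fell and 2 rose. Of the smooth muscle markers 6 of 9 rose and 2 fell, of the macrophage markers 2 of 10 rose and 2 fell, and of the epicardial markers 3 of 7 fell and 0 rose. With median-of-ratios scaling 11 of the 18 cardiomyocyte markers fell and 0 rose. The part of these cell types was not tested.

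With Foxm1 overexpression the muscle genes moved little and in both directions, as did all genes tested. In OE-Foxm1 against OE-NC, 13 of the 34 rose (38.2%), 9 fell (26.5%) and 12 were not called. Of all genes tested, 27.1% were called higher and 28% lower. The share of muscle genes called lower was thus close to that of all genes. The median was 0.06, against -0.00 for all genes tested, and none reached a 2-fold change on this scale. By role, 3 of 6 thin filament genes rose and 1 fell, 4 of 8 thick filament genes rose and 1 fell, 1 of 3 of titin and the M band rose and 2 fell, 3 of 11 of the Z disc rose and 2 fell, 1 of the desmin group rose and 1 fell, and 1 of the metabolic group rose and 2 fell.

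The furthest falls were those of Myh7 and Acta1, each the scarcer gene of its pair. Myh7 was at 7.03, 7.54 and 6.79 FPKM in OE-NC and 3.68, 3.78 and 3.66 in OE-Foxm1 (-0.79 ± 0.05, adjusted p = 1.04e-06). Acta1 was at 5.99, 5.17 and 4.97 FPKM and then 2.01, 3.28 and 2.97 (-0.78 ± 0.12, adjusted p = 0.000255), with OE-Foxm1 replicate 1 under the other 2. All OE-Foxm1 libraries of both genes lay under all OE-NC libraries, as the choice of named genes required. Xirp1, an actin-binding protein of the intercalated disc, went from 21.9, 22.5 and 21.9 FPKM to 15.8, 16.6 and 16.4 (-0.42 ± 0.04), and titin (Ttn) from 18.2, 22.3 and 20.5 to 14.8, 15.7 and 16.6 (-0.35 ± 0.07). Fhl2 rose from 159, 146 and 159.8 FPKM to 211, 198 and 199.9 (0.39 ± 0.04, adjusted p = 2.36e-05) and Tnni1 from 55.2, 54.8 and 43.4 to 67.4, 61.7 and 63.8 (0.33 ± 0.08, adjusted p = 0.00429). Lack of overlap was required of these genes as well. Tcap (0.31 ± 0.08), Myl7 (0.30 ± 0.05), Hspb7 (0.25 ± 0.03), Myh6 (0.23 ± 0.03) and Tnnc1 (0.21 ± 0.04) also rose, and Mb, Myom2, Myl2, Myl3, Nebl and Tnnt2 rose by between 0.12 and 0.21, the call of Tnnt2 being lost with quantile normalization (0.03), with no filter, and without OE-NC replicate 2 or 3. Actc1 was at 1414, 1341 and 1349 FPKM in OE-NC and 1488, 1405 and 1451 in OE-Foxm1 (0.08 ± 0.03, adjusted p = 0.0609), with overlapping ranges, and was called higher under 4 alternatives, among them voom on recovered counts (adjusted p = 0.0114). Tnni3, at 468, 455 and 447 FPKM and then 489, 486 and 454, was not called either (0.06 ± 0.03).

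Foxm1 overexpression and the siRNA alone share no library. Of the 25 muscle genes that fell with the siRNA, 12 rose with overexpression (Fhl2, Hspb7, Mb, Myh6, Myl2, Myl3, Myl7, Nebl, Tcap, Tnnc1, Tnni1 and Tnnt2), 4 fell there too (Ckm, Myh7, Nmrk2 and Ttn) and 9 were not called, among them Actc1, Actn2, Ldb3 and Sh3bgr. This cross-count was not made over all genes tested, of which 27.1% rose and 28% fell with overexpression. It therefore does not show an opposite response particular to the muscle genes. Acta1 rose with the siRNA and fell with overexpression. Its control level differed between the arms, at 1.72 ± 0.21 FPKM in si-NC and 5.38 ± 0.54 in OE-NC. For Nmrk2, 57.4 ± 3.9 FPKM in si-NC became 10.5 ± 0.8 in si-Foxm1, while 35.8 ± 0.9 in OE-NC became 31.4 ± 1.8 in OE-Foxm1 (-0.18 ± 0.04, adjusted p = 0.00382). Myh7 fell in both comparisons. Changes with overexpression stayed within 0.79 of 0 on the log2 scale, against a range down to -2.95 with the siRNA. In the overexpression arm, 8 of 18 cardiomyocyte markers outside the sarcomere rose and 4 fell (sums of 2544 to 2750.2 FPKM in OE-NC and 3004 to 3197 in OE-Foxm1), 7 of 10 fibroblast markers rose and 1 fell, and 6 of 10 macrophage markers rose and 3 fell. Of the endothelial markers 3 of 9 rose and 0 fell, of the smooth muscle markers 2 of 9 rose and 4 fell, and of the epicardial markers 3 of 7 rose and 3 fell. Their part in the result was not tested.

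**Figure D4:**
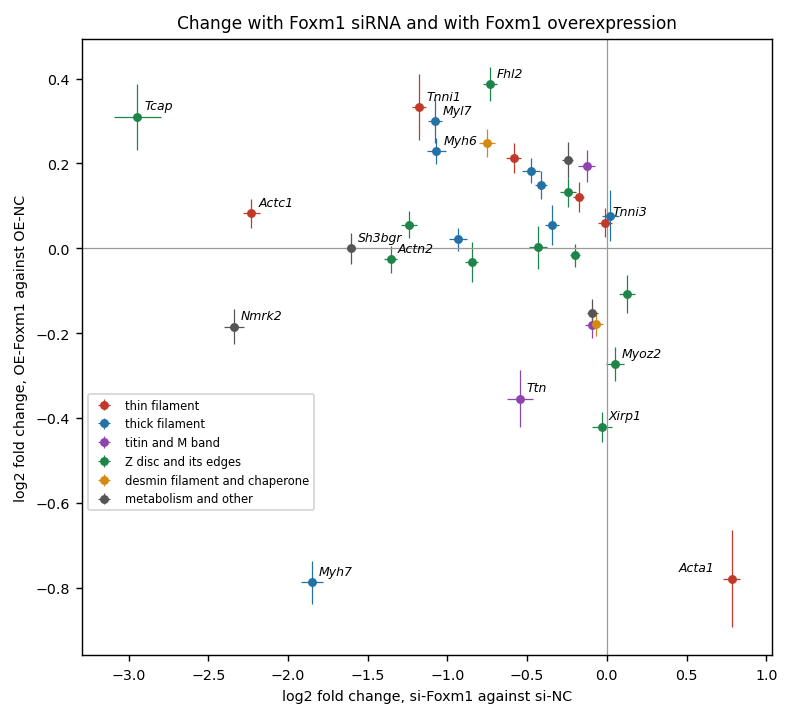
Log2 fold change (± standard error) of each of the 34 genes with the Foxm1 siRNA (horizontal) and with Foxm1 overexpression (vertical), coloured by role. Genes that fell with the siRNA and rose with overexpression, such as Tcap, Tnni1 and Fhl2, are at the upper left, Myh7 is low in both, and Acta1 is furthest to the lower right.

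Isoform pairs were compared as shares of their summed FPKM, which do not depend on the scaling between libraries. Among the alpha-actins, the Acta1 share was 0.0606 ± 0.0087% in si-NC and 0.604 ± 0.049% in si-Foxm1, 9.97-fold higher, and 0.0913 ± 0.0048% in Ang-II and 0.837 ± 0.027% in si-Foxm1+Ang-II, 9.17-fold higher. It was 0.391 ± 0.028% in OE-NC and 0.191 ± 0.051% in OE-Foxm1. Actc1 made up nearly the whole of the pair in every library.

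Myh6 was at 1496, 1673 and 1684 FPKM in si-NC, 848, 729 and 736 in si-Foxm1, 1172, 1237 and 1118 in Ang-II and 561, 579 and 569 in si-Foxm1+Ang-II. It was at 816, 854 and 824 in OE-NC and 979, 957 and 989 in OE-Foxm1, above its control in all 3 libraries. The other heavy chain was far scarcer, and the Myh7 share was 0.646 ± 0.023% in si-NC, 0.286 ± 0.045% in si-Foxm1, 1.03 ± 0.04% in Ang-II and 0.433 ± 0.036% in si-Foxm1+Ang-II. It was 0.849 ± 0.029% in OE-NC and 0.379 ± 0.013% in OE-Foxm1. The share was thus lower with the siRNA and with overexpression, and higher with angiotensin II, in each pair of groups. Myh7 and Myh6 are near-identical in places (14.4% of 75-base windows of Myh7 also occur in Myh6), so fragments of one may have been lost or counted to the other. No such window was shared by the alpha-actins or the troponins I.

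Tnni1 was at 65.3, 66.1 and 72.5 FPKM in si-NC, 29.9, 29.8 and 28.7 in si-Foxm1, 53.2, 47.8 and 52.0 in Ang-II and 24.6, 24.6 and 24.2 in si-Foxm1+Ang-II. It was lower with the siRNA, without and with the hormone, and lower with the hormone, without and with the siRNA. None of these comparisons had overlapping groups. The Tnni1 share was 11.9 ± 0.9% in si-NC, 5.56 ± 0.17% in si-Foxm1, 14.6 ± 1.1% in Ang-II and 6.36 ± 0.16% in si-Foxm1+Ang-II. It was 10.1 ± 1.1% in OE-NC and 11.9 ± 0.6% in OE-Foxm1. The level of this share depends on the long Tnni1 length noted above. Actc1 and Tnni3, 2 thin filament genes of the mature heart, were set against each other after their values were seen. Their FPKM ratio was 5.63 ± 0.25 in si-NC, 1.21 ± 0.14 in si-Foxm1, 6.47 ± 0.24 in Ang-II, 1.06 ± 0.02 in si-Foxm1+Ang-II, 2.99 ± 0.04 in OE-NC and 3.04 ± 0.15 in OE-Foxm1.

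For these 4 measures, 20 comparisons were each given an exact permutation test (two-sided), which with 3 libraries per group cannot go below p = 0.1. It was 0.1 (0.111 adjusted over the 20) for 18 of them, with no overlap between groups. For the Actc1 to Tnni3 ratio the exact permutation p was 0.2 between si-Foxm1+Ang-II and si-Foxm1 and 0.7 between the overexpression groups, where the values overlapped. No comparison of this design can pass 0.05 by that test.

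**Figure D5:**
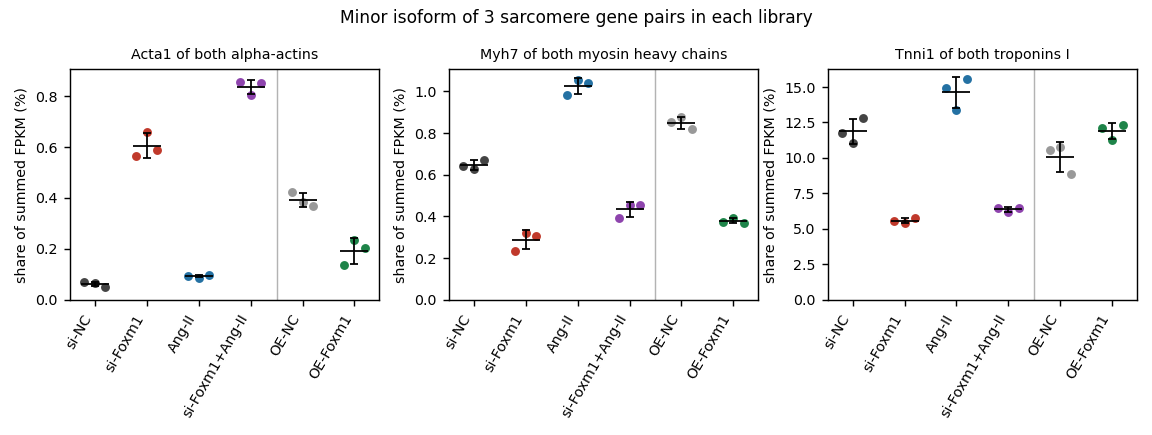
Share (%) of the minor isoform in the summed FPKM of 3 gene pairs in each library (points), with the mean (long bar) and SD (n = 3), on axes that start at 0. Acta1 is high in both siRNA groups, while Myh7 and Tnni1 are low there, and Myh7 is also low in OE-Foxm1.

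A further list of 82 muscle structural genes outside the 34 moved less evenly with the siRNA. Both lists were chosen with earlier results of these data known, so this contrast is descriptive. With the siRNA, 21 of 63 tested rose and 29 fell, with a median of -0.08. Over all genes tested, 48.5% were called higher and 17.2% lower. The split depended on the scaling, with 11 higher and 32 lower of 62 under median-of-ratios scaling. Quantile normalization gave 15 and 31 of 63. Trim54, a ubiquitin ligase of the sarcomere, rose by 1.13 ± 0.05 (15.4 to 35.1 FPKM), and Myh14, a nonmuscle myosin, and Mypn (myopalladin), which links titin to the Z disc, rose by 0.75 ± 0.07 and 0.74 ± 0.06. Ankrd1, a stress-induced titin-binding protein, fell by 0.84 ± 0.03 (1531 to 853 FPKM). Under angiotensin II, 20 rose and 23 fell with the siRNA, among them Ankrd1 (-0.87 ± 0.03), Trim54 (0.82 ± 0.05), Mypn (0.73 ± 0.06) and tropomyosin Tpm1 (-0.68 ± 0.04).

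With angiotensin II alone, 39 of the 63 fell and 3 rose, led by the fatty acid binding protein Fabp3 (-0.81 ± 0.04), Mybphl (-0.75 ± 0.06), Pdlim3 (-0.59 ± 0.04) and the actin nucleator Lmod1 (-0.55 ± 0.08). Over all genes tested, 29.2% were called lower and 15.2% higher. With the siRNA present, the hormone lowered 41 and raised 3, led by Lmod3 (-0.63 ± 0.07), Mybphl (-0.60 ± 0.06), Pdlim3 (-0.58 ± 0.04) and Fabp3 (-0.57 ± 0.04). The shares over all genes tested were then 34.6% lower and 12.9% higher. The interaction called Trim54 (-0.32 ± 0.07, adjusted p = 0.0405) and Tpm2 (0.30 ± 0.07, adjusted p = 0.0488), calls lost under 11 and 12 alternatives. With overexpression, 12 of 62 tested rose and 17 fell, while 27.1% of all genes tested were called higher and 28% lower. The small heat shock proteins Hspb8 and Hspb1 fell by 0.84 ± 0.04 and 0.83 ± 0.05, Jph1, which ties the cell membrane to the calcium store, fell by 0.82 ± 0.06, and Cox8b, a muscle subunit of the respiratory chain, rose by 0.49 ± 0.03.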

How the data were processed

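The deposited table holds FPKM values, 1 column per library. The authors made them with fastp, HISAT2 and HTSeq on mm39, per the submitters' processing notes. Tool versions and annotation: not given in the sources used here. Groups and replicate numbers came from the sample titles. Whole fragment counts, totals and lengths were recovered from FPKM ratios between libraries (17960 of 17960 genes above 0 within 0.02 of a whole count). Replicates differed by more than counting error, so no library was counted as a duplicate.

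Log2(FPKM + 1) was fitted with limma 3.58.1 in R 4.3.3 (a mean per group, eBayes with trend), with 12 libraries in 1 fit and the 6 overexpression libraries in another, on genes with a mean of at least 1 FPKM. Recovery and fits were tested on simulated data. Tables and figures used Python 3.11.15. Members and lists were chosen with earlier results of these data known. Named with values in every library were, per comparison, up to 5 called members with the largest change and no overlap, up to 2 of the opposite direction, and 3 isoform pairs; of the further muscle list, up to 4 called genes. Alternatives were another pseudocount, filter, scaling, set of libraries, replicate block, voom, a 2-fold minimum, and each library left out. Promoters came from RefSeq (GRCm38.p6) and transcript lengths from GENCODE M21.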

Additional observations from a re-analysis of the deposited data

Results flagged for a closer look

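Fhl2, the LIM-domain adaptor of the Z disc, was the 1 muscle gene called by the interaction term, the difference between the Foxm1 siRNA effects with and without angiotensin II. The siRNA effect was 0.28 ± 0.06 higher with the hormone on the log2 scale (limma, adjusted p = 0.0488), a smaller fall in the presence of the hormone. All 3 si-Foxm1 libraries lay between 161 and 189 FPKM, and all 3 si-Foxm1+Ang-II libraries between 157 and 163, so that the 2 siRNA groups overlapped while their controls did not. The call was lost with a filter at 0.1 FPKM (adjusted p = 0.0558), with no filter (adjusted p = 0.113) and with 9 of the 12 libraries left out 1 at a time (adjusted p from 0.0727 to 0.118). Over the alternatives the adjusted p ran from 0.00886 to 0.118 and the difference from 0.22 to 0.34. Myoz2 (0.35 ± 0.08, adjusted p = 0.0543) and Tnni3 (0.28 ± 0.07, adjusted p = 0.0586) had differences as large and were called under 6 and 4 alternatives, so that Fhl2 was not shown to stand apart from them. Myl4 (0.26 ± 0.06) and, in the other direction, Tnnt2 (-0.20 ± 0.05) were called under 4 and 5 alternatives. Both had an adjusted p of 0.0740 in the main limma fit.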

How the results depend on the processing

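The count of muscle genes called stayed within 1.5 times the reported one under each alternative other than the 2-fold minimum, except in the interaction. With a 2-fold minimum, 10 of the 34 were called with the siRNA, 0 with angiotensin II, 9 with the siRNA under angiotensin II, 0 with angiotensin II under the siRNA, 0 in the interaction and 0 with overexpression. The interaction called 0 with a filter at 0.1 FPKM or none, 4 with median-of-ratios scaling, 5 with quantile normalization, 3 with all 18 libraries in 1 fit and 5 with voom. Over all genes tested it called 103 in the main fit, and 111 and 57 with these filters. The 2 scalings, the joint fit and voom gave 114, 136, 169 and 229 over all genes, in that order. Leaving out 1 library gave 25 to 28 calls with the siRNA, 28 to 30 with angiotensin II, 26 to 29 with the siRNA under angiotensin II, 28 to 30 with angiotensin II under the siRNA, 21 to 23 with overexpression and 0 to 4 in the interaction (4 without Ang-II replicate 3, which stood furthest from its group, and 2 without si-Foxm1 replicate 3). Over all genes tested, leaving out 1 library gave 6666 to 7572, 4198 to 4953, 6143 to 6821 and 4649 to 5497 calls. These are in the same order, followed by 5506 to 5836 with overexpression and 37 to 196 in the interaction. The interaction gave 196 over all genes without Ang-II replicate 3 and 135 without si-Foxm1 replicate 3. The cause of these differences was not tested.

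Signs turned, or the change went to 0, for a few small changes. With the siRNA, quantile normalization gave 0.0917 for Tnni3, 0.1642 for Tnnt2 and 0 for Mb, and median-of-ratios scaling gave -0.0047 for Smpx. With 1 library left out, Tnni3 ran from -0.0432 to 0.0324, above 0 without si-NC replicate 2 or si-Foxm1 replicate 3. With angiotensin II, Acta1 ran from -0.0371 to 0.0693, below 0 without si-NC replicate 3. The Myh6 interaction was -0.0098 with quantile normalization and ran from -0.0116 to 0.0969 with 1 library left out, below 0 without si-NC replicate 3, si-Foxm1 replicate 2 or 3, or Ang-II replicate 3. Under angiotensin II, the siRNA calls of Ckm and Csrp3 were lost under 6 and 3 alternatives, and the angiotensin II call of Ttn under 8. Of 3379 values of single genes under alternatives, 3256 kept direction and call, 99 lost the call, 12 gained one and 12 changed sign or, for Mb, went to 0.

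Median-of-ratios scaling moved the median of all genes with the siRNA from 0.11 to 0.00, and the muscle genes then gave 29 lower and 1 higher, against 24 and 2 with quantile normalization. Over all genes, the siRNA called 5418 higher and 1924 lower as deposited, 2948 and 3275 with median-of-ratios scaling and 3430 and 2975 with quantile normalization. Under angiotensin II, these were 4918 and 1942, 3076 and 3117, and 3330 and 2889. Angiotensin II alone called 1702 higher and 3268 lower, then 2479 and 2422, and 2679 and 2292. With the siRNA present it called 1441 and 3873, then 2464 and 2262, and 2425 and 2331.

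The replicate numbers carry no shared batch in the labels, and same-numbered libraries had correlations of -0.04 to 0.18, so they were not treated as pairs. With a replicate block, the calls were 28, 30, 28, 29 and 24 in the order siRNA, angiotensin II, siRNA under angiotensin II, angiotensin II under the siRNA and overexpression, and 4 in the interaction. Over all genes tested the block gave 7411, 5008, 6945, 5397 and 6210 calls in that order, and 137 in the interaction. Without it there were 7342, 4970, 6860, 5314, 6200 and 103 over all genes. The block added the calls of Myom2 with the siRNA, of Actc1 and Smpx with overexpression and of Myoz2, Tnni3 and Tnnt2 in the interaction, and lost that of Acta1 with angiotensin II under the siRNA. Each library correlated best with its own number in 2 of 5 comparisons, a hint from the data and not the design.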
